A study of Mus musculus with 12 samples.

Results

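Solute carriers are membrane proteins that move small molecules and ions across the cell surface and the membranes of organelles. The 120 solute carrier genes described here were chosen by summed counts: their symbols have the form Slc, a family number, the letter a and a member number, and they reached at least 30 counts summed over 6 libraries of mouse liver cells. The table has 25919 rows, of which 258 carry such a symbol. Of these, 133 fell under 30 counts, and 7 were set aside by name (Slc2a1, Slc2a3, Slc16a3, Slc7a2, Slc40a1, Slc11a1 and Slc11a2), 5 of them with at least 30 counts. The members had between 30 and 7740 summed counts, with a median of 173.5. Just inside the limit were Slc16a1 with 30 counts and Slc9a7 with 32, and just outside it were Slc16a7 with 29 and Slc25a40 with 28.

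The libraries came from C57BL/6 mice aged 7 weeks, with no altered gene and no agent named in the labels, and were sequenced in bulk from the 3′ end of poly(A) RNA. One group of 2 libraries carried the label Kupffer cells (the macrophages resident in the liver) at day 0. The other, of 4 libraries, was labelled CD40, after a receptor on antigen-presenting cells, at day 2. The labels leave unsaid what starts the day count, the sort used, and if the libraries stem from different mice, so p-values measure the spread between libraries, which may be technical. Label and day differ together and cannot be told apart. A further 6 libraries, of Kupffer cells at day 7 and of Ly6C CD40-negative cells at day 2, were not read by gene.

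Some carriers work at the cell surface and set which nutrients enter, such as amino acids, sugars, nucleosides and metals. Others sit in the membranes of lysosomes and return the products of digestion to the cytosol, a route of particular use to macrophages, which take up and digest dying cells and particles. The Slc25 carriers lie mostly in the inner membrane of mitochondria and exchange nucleotides, phosphate, amino acids and cofactors with the cytosol. Several carriers work as obligate exchangers or as pairs of a heavy and a light chain, so that the transcript of one member says little of transport by itself.

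The 2 Kupffer libraries held 1612435 and 688498 counts and the 4 CD40 libraries 1182437, 725683, 2271228 and 1775691. The letters a to d, given in column order, only name the libraries. Levels are in CPM, a library's counts for a gene as a share of its scaled total. A count of 0 allows a level of up to 1.36 to 4.23 CPM, depending on the library, for counting error only. The label was set against marker lists for 11 cell types. The 11 Kupffer markers, such as Clec4f and Vsig4, summed to 4369 and 3998 CPM in the Kupffer libraries and to between 117 and 248 CPM in the CD40 libraries. The 14 markers of sinusoidal endothelial cells, which line the liver's capillaries, summed to 20020 and 22013 CPM against 724 to 1336 CPM, so the libraries labelled Kupffer carry these transcripts as well. Stellate cell and fibroblast markers summed to 2028 and 1705 CPM against 45.3 to 127 CPM, with Col1a1 at 0 in the CD40 libraries, and hepatocyte markers to 1074 and 1990 CPM against 201 to 319 CPM. Classical monocyte markers went the other way, from 1466 and 1320 CPM to between 13371 and 18988 CPM. Of the tested markers, 9 of 11 for Kupffer cells, 14 of 14 for endothelial cells, 9 of 9 for stellate cells and 7 of 8 for hepatocytes were lower in CD40 libraries, and 6 of 8 for classical monocytes were higher. Against their lists, the Kupffer marker Adgre1 did not fall (95.4 and 99.6 CPM on average). The hepatocyte marker Ass1 rose (6.35 and 117 CPM). Neutrophil markers, at 891 and 3004 CPM against 904 to 1797 CPM, had none of 7 past the threshold. Conventional dendritic cell markers summed to 123 and 157 CPM in Kupffer libraries and to 256, 471, 172 and 170 CPM in CD40 a to d, with 2 of 6 higher and 1 lower, and CD40 b stood apart, with Xcr1 at 86.3 CPM there. Zbtb46 made up 88.4 and 98.9 CPM of the Kupffer sums and 18.9 CPM on average in CD40 libraries. The other markers of that list were all higher on average in CD40 libraries. Erythroid markers reached 790 CPM in CD40 d against 66.8 to 283 CPM in the other 5 libraries. B and plasma cell markers summed to 166 CPM in Kupffer day 0 b, of which Jchain made up 141 CPM, against 16.7 to 32.5 CPM elsewhere. T and NK cell markers lay between 229 and 338 CPM and cholangiocyte markers between 10.3 and 113 CPM in the 6 libraries. Spp1 made up 112 CPM of the cholangiocyte sum in CD40 d. In bulk libraries, fewer cells of a type and less RNA per cell cannot be told apart, and the part of these cell types in each result below was not tested.

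Promoter sequences were available for 93 of the 120 members, from RefSeq on GRCm38.p6. For 4 members on which the results turn, up to 250 bases before an annotated start of transcription are given, 5′ to 3′ on the strand of the gene. The windows of Slc7a11, Slc7a7 and Slc39a8 lie inside the annotated span of the gene, so they belong to an inner start. Slc7a11 and Slc7a7 encode light chains of the same heavy chain and went in opposite directions. Slc2a6 and Slc39a8 had the largest rise and the largest fall by fitted log2 fold change among the members tested. Capitals mark the core of the amino acid response element, TGATGNAA, searched on both strands.

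Slc7a11, chr3:50443615-50443863, minus strand: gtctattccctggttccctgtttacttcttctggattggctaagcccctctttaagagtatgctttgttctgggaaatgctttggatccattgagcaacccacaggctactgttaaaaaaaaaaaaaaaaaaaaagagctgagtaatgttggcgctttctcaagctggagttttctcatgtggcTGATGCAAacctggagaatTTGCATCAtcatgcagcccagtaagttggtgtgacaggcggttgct

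Slc7a7, chr14:54417945-54418194, minus strand: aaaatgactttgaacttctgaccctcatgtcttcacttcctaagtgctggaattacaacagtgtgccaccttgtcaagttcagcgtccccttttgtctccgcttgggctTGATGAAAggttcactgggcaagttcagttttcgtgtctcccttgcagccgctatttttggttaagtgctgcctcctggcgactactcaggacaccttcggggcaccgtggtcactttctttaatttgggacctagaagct

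Slc2a6, chr2:27027999-27028248, minus strand: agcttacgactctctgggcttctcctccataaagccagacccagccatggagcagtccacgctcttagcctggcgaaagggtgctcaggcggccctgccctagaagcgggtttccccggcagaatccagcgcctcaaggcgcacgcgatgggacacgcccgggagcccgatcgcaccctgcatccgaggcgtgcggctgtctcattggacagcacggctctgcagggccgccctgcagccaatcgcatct

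Slc39a8, chr3:135825029-135825278, plus strand: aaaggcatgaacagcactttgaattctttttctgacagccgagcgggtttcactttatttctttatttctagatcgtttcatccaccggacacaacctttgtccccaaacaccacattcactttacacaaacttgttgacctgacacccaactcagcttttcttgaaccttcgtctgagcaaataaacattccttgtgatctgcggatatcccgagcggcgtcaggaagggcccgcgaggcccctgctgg

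The Slc7a11 window holds the motif on both strands, and the Slc7a7 window holds it once. The same motif was found in the promoter windows, 300 bases from 250 before to 50 after an annotated start, of 4.51% of 27025 genes. Among members with a promoter it was in 1 of 17 that were higher, Slc7a11, in 4 of 28 that were lower (Slc7a7, Slc9a9, Slc26a10 and Slc50a1), and in 0 of 48 others. The windows of Slc2a6 and Slc39a8 hold neither this motif nor the other 4 searched on both strands. Of those, the metal response element core TGCACAC, in 5.02% of genes, was in 0 of 17 higher members, 2 of 28 lower members (Slc25a29 and Slc37a3) and 2 of 48 others. The PU.1 site GAGGAAGT, in 3.69% of genes, was in 1 higher member (Slc31a1), 0 lower members and 1 other, and the interferon response element core GAAANNGAAA, in 3.99% of genes, was in 1 higher member (Slc25a22), 0 lower members and 1 other. The NF-kappaB site GGGANTTTCC, in 0.466% of genes, was in no member that was higher or lower and in 2 of 48 others, Slc6a13 and Slc37a4. A match is only a run of letters in a window.

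CD40 day 2 was compared with Kupffer day 0 for each gene with edgeR's quasi-likelihood test, with p-values adjusted over all 9852 genes tested and a threshold of 0.05. Of the members, 113 were tested and 7 had counts too low to test (Slc5a6, Slc6a13, Slc9a7, Slc9a8, Slc16a1, Slc22a5 and Slc52a3). Higher in CD40 libraries were 24 of 113 members, or 21.2%, beside 23.2% of all genes tested. Lower were 36 members, or 31.9%, beside 30.2% of all genes. In either direction it was 53.1% of members and 53.4% of all genes, so the share of carriers that changed was close to that of genes at large. The sizes were broad: 7 of the members called were at least 4-fold higher and 19 at least 4-fold lower. The same counts over all genes were not taken, so these say nothing particular to carriers. Some members reached the limit of 30 counts through 1 group alone, such as Slc7a5, Slc12a2, Slc12a5 and Slc45a3 (Kupffer) and Slc7a6 (CD40). The size of their change follows in part from that choice. The median log2 fold change was -0.26 over the members tested and -0.10 over all genes. Summed over members, carriers made up 7516 and 7470 CPM of the Kupffer libraries and 5774, 5084, 6906 and 6967 CPM of the CD40 libraries. Every CD40 library lay below both Kupffer libraries. On average the sum went from 7493 to 6183 CPM. Within it, Slc29a1 went from 974 to 51.1 CPM and Slc43a3 from 680 to 24.6 CPM, together more than the fall of the sum. So the lower sum does not describe the other members. The counts of calls rested in part on 1 library: with Kupffer day 0 a left out, which leaves 1 Kupffer library, fewer members passed. Fewer of all genes passed as well, so this is not particular to carriers. Under every fit without 1 library that tested them, 11 of the higher and 20 of the lower members stayed past the threshold.

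**Figure D1:**
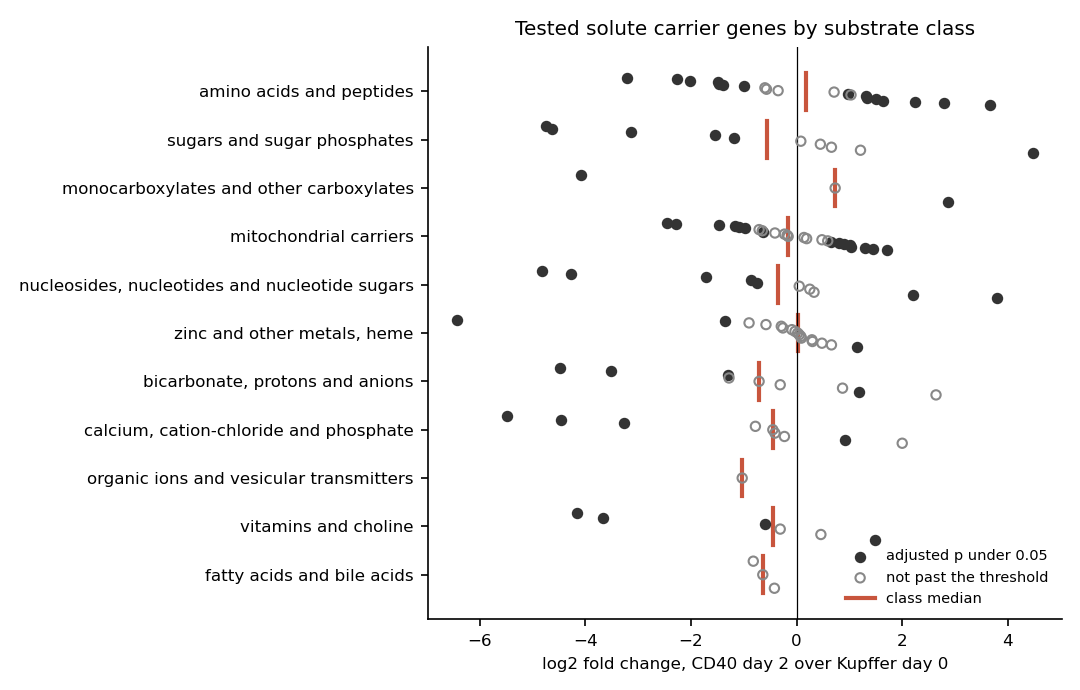
Log2 fold change of CD40 day 2 over Kupffer day 0 for each of the 113 members tested (points), by substrate class: filled points passed an adjusted p of 0.05 (edgeR), open points did not, and vertical bars mark class medians. Members of most classes lie on both sides of 0, from -6.43 for Slc39a8 to 4.48 for Slc2a6.

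Amino acid and peptide carriers divided evenly. Of 21 members, 20 were tested, 8 were higher and 7 lower in CD40 libraries, and the median log2 fold change was 0.18. Their summed level was 1923 ± 10.1 CPM (SD, n = 2) in Kupffer libraries and 1776 ± 493 CPM (SD, n = 4) in CD40 libraries. The higher members included the glutamine carriers Slc1a5 and Slc38a1, the cystine-glutamate exchanger Slc7a11, the taurine carrier Slc6a6 and the lysosomal peptide and histidine carriers Slc15a3 and Slc15a4. The lower ones included the neutral amino acid carriers Slc38a2, Slc43a2 and Slc7a5. Without Kupffer day 0 a only 3 members were higher and 4 lower, and without Kupffer day 0 b 5 were higher.

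Slc3a2 is the heavy chain that takes several light chains of the Slc7 family to the cell surface. Its level was 1018 and 1107 CPM in Kupffer libraries and 689, 543, 979 and 1120 CPM in CD40 libraries. The groups overlapped, and the log2 fold change of -0.35 ± 0.26 (SE) did not pass the threshold (adjusted p = 0.29). All 5 of its light chains among the members passed it, 3 higher and 2 lower, a grouping made after the values were seen.

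Slc7a11 forms the cystine-glutamate exchanger with Slc3a2 and lies on chromosome 3 from 50364936 to 50499087 (GRCm38.p6). It stood at 0.574 and 8.36 CPM in Kupffer libraries and at 43.7, 14.1, 39.1 and 54.8 CPM in CD40 libraries. The groups did not overlap, though the Kupffer libraries were far apart from each other and held only 1 and 6 counts. The log2 fold change was 3.66 ± 0.77 (adjusted p = 0.00287). It was 2.22 without Kupffer day 0 a, where the call was lost (adjusted p = 0.0683), and 5.91 without Kupffer day 0 b (adjusted p = 0.00328). Slc7a8, a carrier of neutral amino acids, rose from 23.5 ± 5.7 CPM to 46.4 ± 17.5 CPM (adjusted p = 0.0438), a call lost without either Kupffer library (adjusted p = 0.119 and 0.209) and without CD40 c or d (0.101 and 0.089). Slc7a6, an exchanger of cationic and neutral amino acids, had 2 counts in Kupffer libraries and 35 in CD40 libraries, a ratio of 6.76 with an exact counting interval from 1.74 to 58.0. Its groups overlapped, with CD40 a at 0.91 CPM and Kupffer day 0 a at 1.15 CPM. Its call (log2 2.79, adjusted p = 0.0398) was lost without Kupffer day 0 a (log2 5.98, 0.132) or b (0.16).

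Slc7a5, the carrier of large neutral amino acids such as leucine, went the opposite way. Its levels were 15.5 and 23.7 CPM in Kupffer libraries against 1.82, 2.83, 2.28 and 1.19 CPM in CD40 libraries, 9.31-fold lower (log2 -3.22 ± 0.44, adjusted p = 2.02e-04). In CD40 libraries it rested on 11 counts in all. Every CD40 library lay below both Kupffer libraries. Slc7a7, which exports cationic amino acids, had 117 and 85 CPM against 28.2, 19.8, 49.6 and 42.3 CPM, again with no overlap. Its log2 fold change was -1.47 ± 0.30 (adjusted p = 0.00235, and 0.0608 without Kupffer day 0 a). Slc7a7 overlaps Oxa1l in the annotation, a gene that was higher in CD40 libraries (log2 0.92), and whether counting used the strand is not given in the sources used here.

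Slc1a5, a sodium-dependent carrier of glutamine, alanine, serine and cysteine, had 7.46 and 11.1 CPM in Kupffer libraries and 23.7, 39.6, 24.6 and 25.6 CPM in CD40 libraries. It was 3.12-fold higher in the latter (log2 1.64 ± 0.36, adjusted p = 0.00366), with no overlap, although the call was lost without Kupffer day 0 a (adjusted p = 0.0835). The Slc38 family also carries glutamine and other small neutral amino acids, and its members differed. Slc38a1 rose from 5.17 and 9.75 CPM to 17.3, 28.3, 39.6 and 39.9 CPM (log2 2.25 ± 0.47, adjusted p = 0.0027, and 0.0779 without Kupffer day 0 a). Slc38a2 fell from 149 and 146 CPM to 42.8, 35.4, 66 and 60.2 CPM (log2 -1.49 ± 0.24, adjusted p = 5.17e-04). In both genes the groups were fully apart. Slc38a6 fell from 57.6 ± 5.17 CPM to 10.9 ± 4.06 CPM (log2 -2.27 ± 0.29, adjusted p = 1.32e-04), and Slc38a10 from 66.3 ± 11 to 24.1 ± 8.87 CPM (log2 -1.40, adjusted p = 0.00284, and 0.0644 without Kupffer day 0 a). Slc38a9, a lysosomal arginine sensor, was at 13.3 ± 0.916 and 7.89 ± 4.05 CPM and did not pass the threshold (adjusted p = 0.297).

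Slc15a3 and Slc15a4 carry histidine and short peptides out of endosomes and lysosomes. Slc15a3 was at 113 and 79.4 CPM in Kupffer libraries and at 163, 190, 295 and 335 CPM in CD40 libraries. The rise was 2.53-fold (log2 1.34 ± 0.32, adjusted p = 0.00562) with no overlap, and the call was lost without Kupffer day 0 b (adjusted p = 0.0668). Slc15a4, which also serves the signalling of endosomal Toll-like receptors, was at 31 and 36.2 CPM against 83.7, 99, 81.5 and 114 CPM. It rose 2.85-fold (log2 1.51 ± 0.23, adjusted p = 4.08e-04), again with no overlap. Slc6a6 rose from 86.7 ± 2.45 CPM to 215 ± 50.1 CPM (log2 1.32 ± 0.24, adjusted p = 0.00111). The amino acid carrier Slc36a4 fell from 34.5 ± 2.46 to 7.79 ± 3.28 CPM (log2 -2.02 ± 0.34, adjusted p = 7.28e-04). Its relative Slc36a1, at 4.39 ± 0.294 and 9.03 ± 2.9 CPM, did not pass the threshold (adjusted p = 0.097). Slc43a2, a facilitative carrier of large neutral amino acids, fell from 136 ± 13.1 to 66.6 ± 24 CPM (adjusted p = 0.0137), a call lost without Kupffer day 0 a (0.126) or b (0.0507). Slc6a6, Slc36a4, Slc38a10, Slc43a2, Slc7a6 and Slc7a8 fell outside the rule for named genes and were chosen after their values were seen.

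Of the 10 sugar and sugar phosphate carriers, 1 was higher and 5 were lower, with a median log2 fold change of -0.55. The single riser outweighed the others in counts. The class summed to 381 ± 13.1 CPM in Kupffer libraries and 576 ± 136 CPM in CD40 libraries. The riser was Slc2a6 (GLUT6), a glucose transporter family member of lysosomal membranes, on chromosome 2 from 27021363 to 27028000. It was counted at 19.5 and 16.7 CPM in Kupffer libraries and at 529, 255, 516 and 353 CPM in CD40 libraries. Each CD40 library lay far above both Kupffer libraries, and the rise was 22.4-fold (log2 4.48 ± 0.38, adjusted p = 1.04e-05).

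Slc2a8 (GLUT8), another intracellular member of the glucose transporter family, did the reverse. It went from 58 and 51.5 CPM to 2.73, 1.41, 8.19 and 8.94 CPM, 8.74-fold lower (log2 -3.13 ± 0.40, adjusted p = 1.30e-04), with no overlap. Slc50a1, of the SWEET family of sugar carriers, went from 185 and 175 CPM to 88.3, 80.6, 72.8 and 75.1 CPM (log2 -1.19 ± 0.16, adjusted p = 1.96e-04). The libraries of each group lay close together. Slc5a3, the sodium-coupled carrier of myo-inositol, an osmolyte, fell from 41.9 and 50.1 CPM to 0, 2.83, 1.82 and 2.38 CPM (log2 -4.63 ± 0.45, adjusted p = 2.22e-05). It rested on 10 counts in CD40 libraries and overlaps Mrps6 in the annotation, which was lower as well (log2 -1.30). Slc45a3 fell from 21.4 ± 0.656 to 0.753 ± 0.907 CPM (log2 -4.74 ± 0.63, adjusted p = 1.77e-04), and its log2 fold change was -5.35 without CD40 a and -4.12 without CD40 c. In CD40 libraries it rested on 4 counts. Slc37a3, of the sugar phosphate exchanger family, fell from 12.5 ± 5.86 to 4.41 ± 1.78 CPM (log2 -1.54, adjusted p = 0.0166), but without Kupffer day 0 a the value was -0.88 and the call was lost (adjusted p = 0.412). Slc37a4, the glucose 6-phosphate carrier of the endoplasmic reticulum, was at 14 ± 2.1 and 20.6 ± 7.27 CPM and did not pass the threshold (adjusted p = 0.359). Slc5a3, Slc45a3, Slc37a3 and Slc37a4 were also chosen after their values were seen.

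Of 4 members of the carboxylate class, 1 was higher, 1 lower, 1 did not pass the threshold and Slc16a1, the lactate carrier MCT1, was too low to test, at 4.96 ± 1.11 and 3.45 ± 1.64 CPM. The member that rose is known for other cargo than the class name says: Slc16a10 carries aromatic amino acids. It had 5.74 and 4.18 CPM in Kupffer libraries and 40, 19.8, 52.8 and 35.7 CPM in CD40 libraries, 7.27-fold higher (log2 2.86 ± 0.46, adjusted p = 5.96e-04). Every CD40 library lay above both Kupffer libraries.

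Nucleoside, nucleobase and nucleotide sugar carriers lost most of their summed level, which was 1869 ± 27.5 CPM in Kupffer libraries and 339 ± 35 CPM in CD40 libraries. That loss lay in Slc29a1 and Slc43a3. Of 10 members, 2 were higher and 5 lower, with a median log2 fold change of -0.35. Slc29a1 (ENT1), the equilibrative nucleoside transporter of the cell surface, lies on chromosome 17 from 45585200 to 45599618. Its levels were 1002 and 946 CPM in Kupffer libraries and 83.7, 48.1, 36.4 and 36.3 CPM in CD40 libraries. It was 19.4-fold lower (log2 -4.28 ± 0.30, adjusted p = 3.10e-06), with the groups far apart. Slc43a3, a carrier of purine nucleobases on chromosome 2 from 84936545 to 84958509, was at 677 and 684 CPM against 57.3, 14.1, 17.3 and 9.53 CPM. It was 28.4-fold lower (log2 -4.83 ± 0.49, adjusted p = 3.15e-05). CD40 a stood above the other CD40 libraries, and without it the log2 fold change was -5.61. The endothelial and Kupffer marker sums fell with these genes, from 20020 and 22013 CPM to 724 to 1336 CPM and from 4369 and 3998 CPM to 117 to 248 CPM, and their part in the falls was not tested.

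The other nucleoside carriers rose. Slc28a2 (CNT2), the sodium-coupled concentrative carrier of purine nucleosides, lies on chromosome 2 from 122426357 to 122461152. It had 5.17 and 4.18 CPM in Kupffer libraries and 58.3, 25.5, 89.2 and 89.9 CPM in CD40 libraries, 13.9-fold higher (log2 3.79 ± 0.59, adjusted p = 4.57e-04). Slc29a3 (ENT3), the equilibrative carrier of lysosomes and mitochondria, had 15.5 and 13.9 CPM against 51.9, 66.5, 74.7 and 80.4 CPM, 4.6-fold higher (log2 2.20 ± 0.27, adjusted p = 1.08e-04). For both, every CD40 library exceeded every Kupffer library. So of 3 nucleoside transporters among the members, 2 rose and 1 fell, and their sum went from 993 ± 42 to 185 ± 30.6 CPM. The CMP-sialic acid carrier of the Golgi, Slc35a1, fell from 52.2 and 51.5 CPM to 20, 7.07, 15 and 18.5 CPM (log2 -1.71 ± 0.30, adjusted p = 9.09e-04). The UDP-galactose carrier Slc35a2 fell from 60.3 ± 21.1 to 32.7 ± 5.07 CPM (adjusted p = 0.0179, and 0.207 without Kupffer day 0 b), while Slc35a3, Slc35a4 and Slc35a5 did not pass the threshold (log2 0.25, 0.05 and 0.33). Slc33a1, which brings acetyl-CoA into the endoplasmic reticulum, fell from 27.6 ± 5.59 to 16.6 ± 1.68 CPM (adjusted p = 0.0334, and 0.344, 0.0607, 0.0584 and 0.0758 without Kupffer day 0 a and CD40 a, b and c). Slc35a2 and Slc33a1 were chosen after their values were seen.

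**Figure D2:**
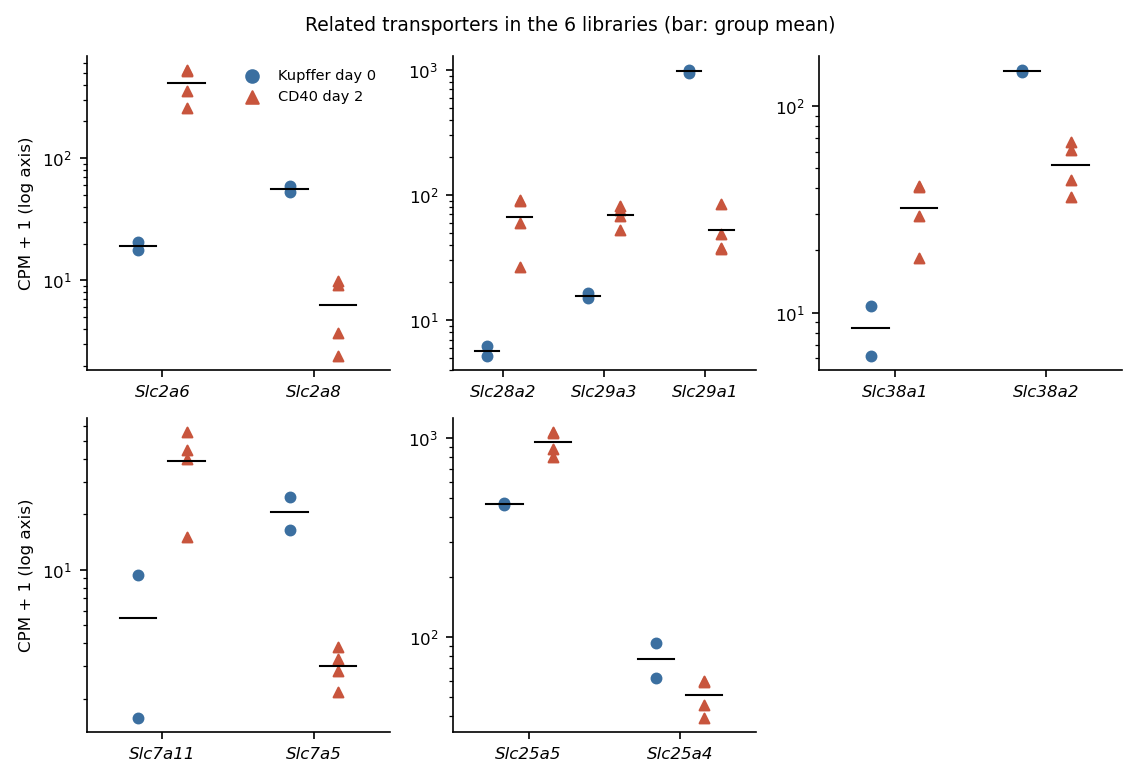
CPM + 1 (log axis) in each of the 2 Kupffer day 0 and 4 CD40 day 2 libraries (points, with a bar at the group mean) for related carriers that went in opposite directions, a choice made after the values were seen. Slc2a6, Slc28a2, Slc29a3, Slc38a1, Slc7a11 and Slc25a5 are higher in CD40 libraries, and Slc2a8, Slc29a1, Slc38a2, Slc7a5 and Slc25a4 lower. The call of Slc25a4 was lost under DESeq2 and under RLE or upper quartile scaling.

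Metal and heme carriers were the class with the most members that did not pass the threshold, 14 of 17, and the median log2 fold change was 0.02. Their summed level was 848 ± 9.7 CPM in Kupffer libraries and 782 ± 130 CPM in CD40 libraries. The members that did were Slc39a8 and Slc39a10, which fell, and Slc31a1, which rose. Slc39a8 (ZIP8), an importer of zinc, manganese and iron, lies on chromosome 3 from 135816882 to 135888572. It had 167 and 182 CPM in Kupffer libraries and 1.82, 1.41, 1.82 and 2.38 CPM in CD40 libraries, where it rested on 11 counts in all. The fall was 86.2-fold (log2 -6.43 ± 0.24, adjusted p = 1.85e-07). Slc39a10, another zinc importer, chosen after its values were seen, fell from 18.5 ± 3.4 to 6.63 ± 2.7 CPM (log2 -1.36, adjusted p = 0.0145), a call lost without Kupffer day 0 a (0.0656) or b (0.0944). The other 6 Slc39 members did not pass the threshold, with levels such as 20.8 ± 3.84 and 20.7 ± 2.34 CPM for Slc39a3. Nor did any of the 4 zinc exporters of the Slc30 family, whose log2 fold changes ran from -0.29 for Slc30a5 to 0.66 for Slc30a6.

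Slc31a1 (CTR1), the high-affinity copper importer, was the member of this class that rose. Its levels were 80.4 and 72.4 CPM in Kupffer libraries and 191, 108, 186 and 186 CPM in CD40 libraries, 2.2-fold higher (log2 1.14 ± 0.25, adjusted p = 0.0039). CD40 b stood below the other CD40 libraries and still above both Kupffer libraries. The related Slc31a2 was at 142 ± 4.17 and 174 ± 31.5 CPM and did not pass the threshold (adjusted p = 0.23). Slc48a1 (HRG1) carries heme out of the phagolysosome when macrophages digest red cells. It stood at 184 and 136 CPM against 134, 117, 194 and 202 CPM, with overlapping groups and a log2 fold change of 0.02 ± 0.25 (adjusted p = 0.958). Its overlapping neighbour Hdac7 was lower in CD40 libraries (log2 -3.07).

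Mitochondrial carriers of the Slc25 family were the largest class, and their summed level rose from 1618 ± 34.5 to 2259 ± 226 CPM. Of 25 members, 8 were higher and 7 lower, with a median log2 fold change of -0.16. The ADP/ATP and phosphate carriers, which supply ATP synthesis, went together from 857 ± 16.5 to 1491 ± 182 CPM. Nearly all of the rise in the class sum lay in these carriers. Slc25a5 (ANT2), an exchanger of ADP and ATP, had 460 and 471 CPM in Kupffer libraries and 873, 795, 1067 and 1059 CPM in CD40 libraries. It rose 2.04-fold with no overlap (log2 1.03 ± 0.18, adjusted p = 9.82e-04), although reads of its processed pseudogenes could be counted with it. Slc25a3, the phosphate carrier, had 316 and 313 CPM against 447, 458, 537 and 530 CPM (log2 0.65 ± 0.16, adjusted p = 0.00685), a call lost without Kupffer day 0 a (0.0627) or b (0.0571). Slc25a4 (ANT1), the other exchanger of ADP and ATP here, fell from 91.9 and 61.3 CPM to 38.2, 59.4, 58.3 and 44.7 CPM. The change was small (log2 -0.64 ± 0.24, adjusted p = 0.0487), and only -0.30 without Kupffer day 0 a. Its call was lost without CD40 a, c or d (0.0996, 0.0517 and 0.0879). With all libraries it was also lost under DESeq2 (0.138), RLE scaling (0.0579) and upper quartile scaling (0.0762). As counts over the class, 4 members were higher without Kupffer day 0 a and 4 without Kupffer day 0 b, and 0 were lower without Kupffer day 0 a.

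Carriers of fuels and amino acids were among the risers. Slc25a20, which exchanges carnitine and acylcarnitine for fatty acid oxidation, had 21.2 and 26.5 CPM in Kupffer libraries and 61, 56.6, 62.8 and 50 CPM in CD40 libraries (log2 1.30 ± 0.23, adjusted p = 9.46e-04). The groups did not overlap. The aspartate and glutamate carriers Slc25a12 (log2 0.89), Slc25a13 (1.71) and Slc25a22 (1.02) were each past the threshold, and their sum went from 41.9 ± 8.09 to 87.1 ± 20.4 CPM. None of these calls held in every fit without 1 library. Without Kupffer day 0 b the adjusted p was 0.145 for Slc25a12, 0.0978 for Slc25a13 and 0.183 for Slc25a22. Without Kupffer day 0 a it was 0.189 for Slc25a12 and 0.0866 for Slc25a22, and the log2 fold change of Slc25a13 was 3.13. Slc25a12 was also lost without CD40 c or d (0.104 and 0.0764) and Slc25a22 without CD40 a or c (0.0666 and 0.103). Slc25a45 rose from 33.9 ± 3.28 to 58.3 ± 5.36 CPM (adjusted p = 0.00799, and 0.11 without Kupffer day 0 a).

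The mitochondrial iron importers both fell. Slc25a37 (mitoferrin 1) had 67.2 and 59.9 CPM in Kupffer libraries and 26.4, 22.6, 36.9 and 31 CPM in CD40 libraries (log2 -1.09 ± 0.23, adjusted p = 0.00277). Slc25a28 (mitoferrin 2) had 54 and 41.8 CPM against 22.8, 7.07, 16.4 and 20.8 CPM (log2 -1.47 ± 0.33, adjusted p = 0.00378). Both were apart between groups, and both calls were lost without Kupffer day 0 a (adjusted p = 0.0501 and 0.0835). Slc25a36, a pyrimidine nucleotide carrier, fell from 36.7 and 32 CPM to 17.3, 9.9, 12.7 and 20.3 CPM (log2 -1.17 ± 0.30, adjusted p = 0.00802), and Slc25a51, the NAD carrier, from 45.6 ± 5.37 to 23.4 ± 2.22 CPM (adjusted p = 0.00391). These calls also depended on Kupffer day 0 a (0.106 and 0.0746 without it), as did those of Slc25a29 (log2 -2.45, and -1.77 with an adjusted p of 0.212 without it) and Slc25a35 (log2 -2.29, adjusted p = 0.0645 without it). Slc25a39, the glutathione carrier, at 202 ± 10.1 and 179 ± 22 CPM, did not pass the threshold (adjusted p = 0.447). The mitochondrial members without their 6 values in the text were chosen after their values were seen, as was Slc25a4.

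**Figure D3:**
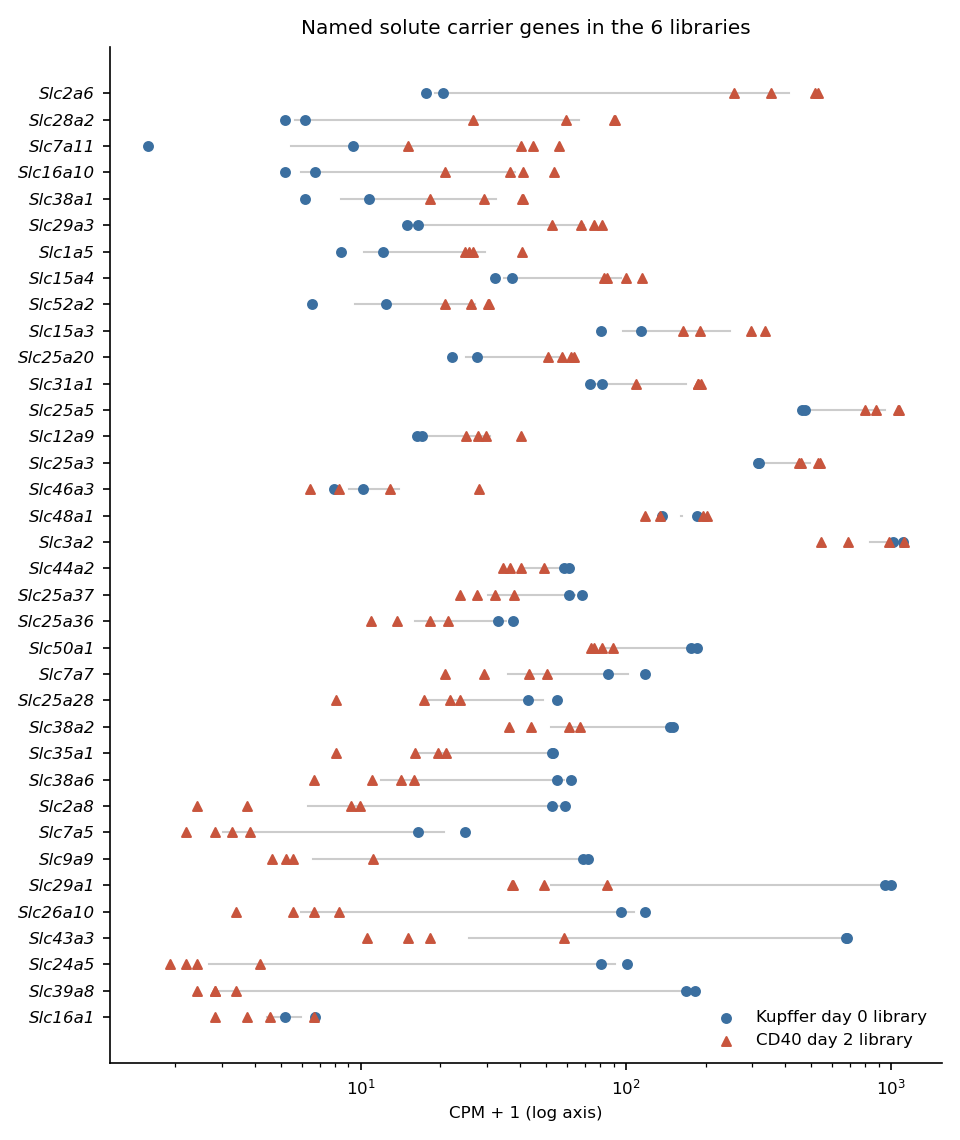
CPM + 1 (log axis) of members singled out by the naming rule in each of the 2 Kupffer day 0 and 4 CD40 day 2 libraries (points). Slc2a6, Slc28a2 and Slc7a11 rise by 22.4-fold, 13.9-fold and 12.7-fold, and Slc39a8, Slc43a3 and Slc29a1 fall by 86.2-fold, 28.4-fold and 19.4-fold. Slc7a11 rests on 1 and 6 counts in the Kupffer libraries, and Slc39a8 on 11 counts in all in CD40 libraries.

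Carriers of bicarbonate, protons and anions had a summed level of 264 ± 32.4 CPM in Kupffer libraries and 110 ± 13.1 CPM in CD40 libraries. Of 11 members, 9 were tested, 1 was higher and 3 were lower, with a median log2 fold change of -0.71. Slc26a10, of the anion exchanger family, had 95.3 and 117 CPM in Kupffer libraries and 7.28, 5.66, 4.55 and 2.38 CPM in CD40 libraries (log2 -4.48 ± 0.30, adjusted p = 2.73e-06). It overlaps B4galnt1, which was higher in CD40 libraries (log2 2.92). Slc9a9, a sodium-proton exchanger of endosomes, had 67.7 and 71 CPM against 3.64, 4.24, 4.55 and 10.1 CPM (log2 -3.52 ± 0.33, adjusted p = 1.93e-05). For both genes the groups were far apart. The sulfate carrier Slc26a2 rose from 10.3 ± 3.18 to 22.1 ± 3.02 CPM (adjusted p = 0.0141, and 0.202 without Kupffer day 0 a). The bicarbonate carrier Slc4a8 split the CD40 libraries, at 30.9 and 31.1 CPM in a and b but 6.83 and 2.98 CPM in c and d, against 2.3 and 2.79 CPM in Kupffer libraries, and did not pass the threshold (adjusted p = 0.0707). Slc26a2 and Slc4a8 were chosen after their values were seen.

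Carriers of calcium, cation-chloride and phosphate fell in sum from 245 ± 16.4 to 114 ± 10.1 CPM. Of 9 members, 1 was higher and 3 were lower, with a median log2 fold change of -0.45. Slc24a5, a potassium-dependent sodium-calcium exchanger of intracellular membranes, best known from pigment cells, had 79.8 and 100 CPM in Kupffer libraries and 0.91, 1.41, 3.19 and 1.19 CPM in CD40 libraries. It was 44.7-fold lower (log2 -5.48 ± 0.34, adjusted p = 1.85e-06), and -6.16 on the log2 scale without CD40 c. In CD40 libraries it rested on 11 counts in all. Its overlapping neighbour Myef2 was lower too (log2 -1.71). The sodium-potassium-chloride importer Slc12a2 fell from 12.9 ± 0.475 to 1.54 ± 1 CPM (log2 -3.27 ± 0.51, adjusted p = 4.92e-04), and the potassium-chloride exporter Slc12a5 from 20 ± 10.6 to 0.796 ± 0.938 CPM (log2 -4.47 ± 0.66, adjusted p = 3.43e-04). These last genes rested on 7 and 5 counts in CD40 libraries and were chosen after their values were seen. Both reached the count limit for members through the Kupffer libraries alone. Slc12a9, of the same family, had 16.1 and 15.3 CPM against 39.1, 24, 28.7 and 26.8 CPM (log2 0.91 ± 0.29, adjusted p = 0.0245), a call lost without Kupffer day 0 a (0.138) or b (0.097). The phosphate importer Slc20a1 was at 38.6 ± 8.37 and 31.7 ± 8.27 CPM and did not pass the threshold (adjusted p = 0.528).

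Of 8 vitamin and choline carriers, 6 were tested, 1 was higher and 3 were lower, and their sum went from 189 ± 4.36 to 104 ± 10.3 CPM. Slc46a1, the proton-coupled folate carrier, had 47.1 and 55.7 CPM in Kupffer libraries and 2.73, 2.83, 4.1 and 1.19 CPM in CD40 libraries, 17.7-fold lower (log2 -4.15 ± 0.36, adjusted p = 1.18e-05). Its lysosomal relative Slc46a3 was at 9.19 and 6.96 CPM against 5.46, 26.9, 7.28 and 11.9 CPM, with overlapping groups (adjusted p = 0.555). The choline carrier Slc44a1 fell from 32.9 ± 2.7 to 2.53 ± 1.61 CPM (log2 -3.66 ± 0.45, adjusted p = 1.09e-04). Slc44a2, a second choline carrier, which mitochondria also hold, had 57.4 and 59.9 CPM against 35.5, 48.1, 39.1 and 33.4 CPM, a small difference with no overlap (log2 -0.60 ± 0.21, adjusted p = 0.0342). That call was lost without Kupffer day 0 a or b (0.137 and 0.137) or CD40 a, c or d (0.0672, 0.0689 and 0.0684). The riboflavin carrier Slc52a2 was the riser, from 11.5 and 5.57 CPM to 29.1, 19.8, 29.6 and 25 CPM (log2 1.48 ± 0.35, adjusted p = 0.00525), and 2.22 without Kupffer day 0 a. Slc46a1 and Slc44a1 rested on 16 and 14 counts in CD40 libraries and were chosen after their values were seen.

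The remaining classes were small. Of 2 organic ion carriers, the lysosomal sialic acid exporter Slc17a5 had 48.8 and 40.4 CPM in Kupffer libraries and 9.1, 9.9, 28.2 and 34 CPM in CD40 libraries. Its groups did not overlap, but the spread among CD40 libraries was wide and the difference did not pass the threshold (log2 -1.03 ± 0.44, adjusted p = 0.0724). None of the 3 fatty acid and bile acid carriers passed it: the adjusted p was 0.262 for Slc10a3, 0.185 for Slc10a7 and 0.107 for the fatty acid carrier Slc27a4, with log2 fold changes of -0.42, -0.64 and -0.82. All 4 genes were chosen after their values were seen.

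**Figure D4:**
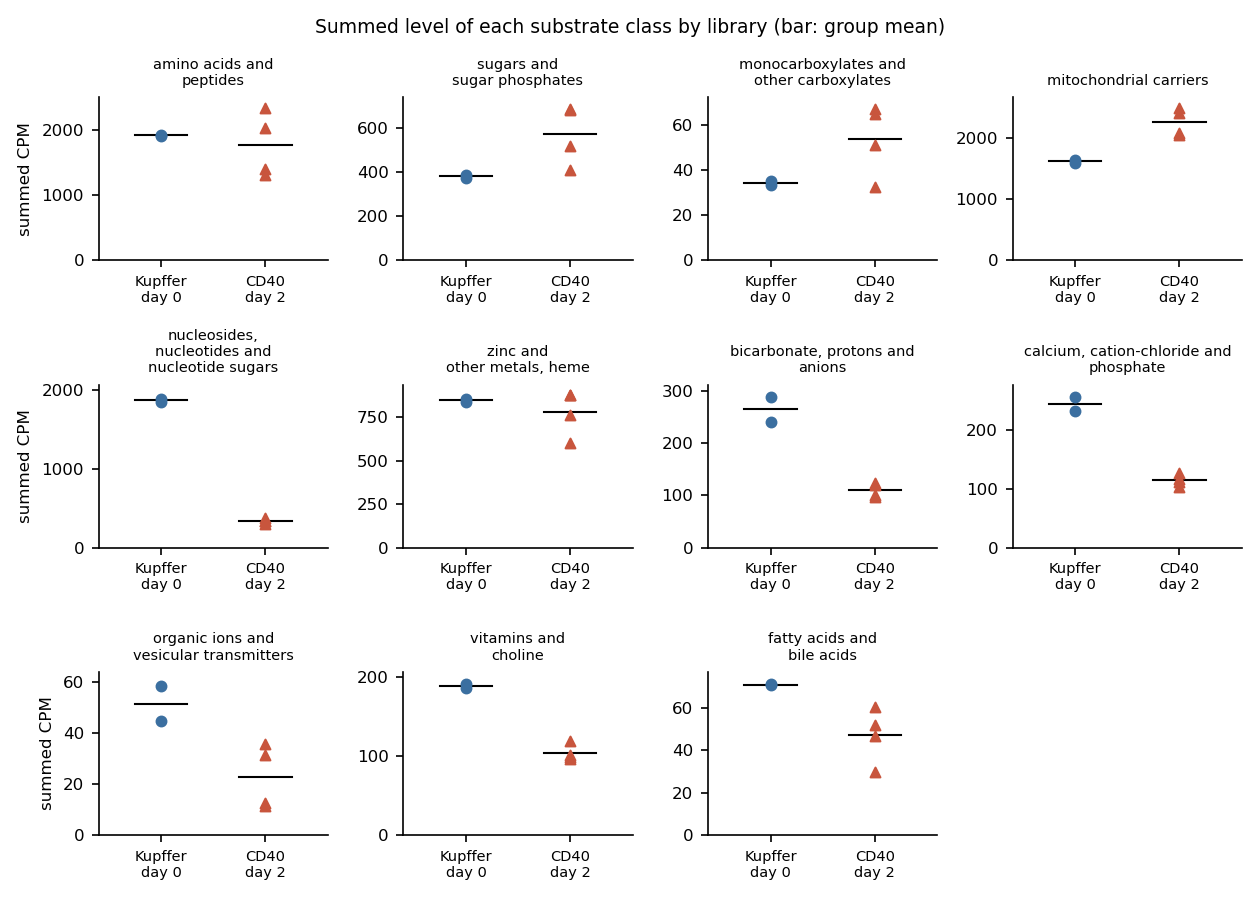
Summed CPM of the members of each substrate class in each library (points, with a bar at the group mean) for Kupffer day 0 (2 libraries) and CD40 day 2 (4 libraries). The nucleoside class goes from 1869 to 339 CPM on average and the mitochondrial class from 1618 to 2259 CPM. The fall of the nucleoside class lies in Slc29a1 and Slc43a3. Nearly all of the mitochondrial rise lies in the ADP/ATP and phosphate carriers.

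Members of lysosomal and endosomal membranes cut across the substrate classes. A group of 15 was put together from known location after the values had been seen, and carries no test. Of these, 4 were higher (Slc2a6, Slc15a3, Slc15a4 and Slc29a3), 2 were lower (Slc2a8 and Slc9a9) and 9 did not pass the threshold, with a median log2 fold change of 0.30. Their summed level was 737 and 652 CPM in Kupffer libraries and 1202, 936, 1478 and 1419 CPM in CD40 libraries. All CD40 libraries were above both Kupffer libraries, and much of that difference was Slc2a6, at 18.1 and 413 CPM on average. Slc37a2, a sugar phosphate family member of macrophages, was at 10.3 ± 0.82 and 22.6 ± 14.6 CPM, and Slc38a7, a lysosomal glutamine exporter, at 13.2 ± 0.881 and 8.67 ± 1.42 CPM, with adjusted p-values of 0.0978 and 0.182. The classical monocyte markers rose beside this group, from 1466 and 1320 CPM to between 13371 and 18988 CPM, and their part in it was not tested.

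Transporters and partner proteins named outside the Slc number pattern were described from a list of 22, of which 18 were in the table and 17 tested. Of these, 8 were higher and 2 lower, Mcu and Spns1, with a median log2 fold change of 0.45. Over all genes tested, 23.2% were higher and 30.2% lower, with a median of -0.10. Spns1, a lysosomal phospholipid carrier, was at 40 ± 4.55 and 22.6 ± 5.51 CPM (log2 -0.76, adjusted p = 0.0348), a call lost without Kupffer day 0 a (0.104) or b (0.163) or CD40 a, b or c (0.0689, 0.0707 and 0.0639). Unc93b1, which takes Toll-like receptors to endosomes, had 182 and 175 CPM in Kupffer libraries and 480, 529, 559 and 478 CPM in CD40 libraries (log2 1.52 ± 0.16, adjusted p = 4.60e-05). Emb, the chaperone embigin that takes monocarboxylate carriers to the surface, rose from 34 ± 22.9 to 173 ± 27.9 CPM (log2 2.49 ± 0.37, adjusted p = 3.51e-04). Vdac2, a channel of the outer mitochondrial membrane, rose from 220 ± 1.29 to 415 ± 54.8 CPM (log2 0.92 ± 0.18, adjusted p = 0.00182). Mcu, the calcium channel of the inner membrane, fell from 25.2 ± 5.66 to 2.95 ± 1.69 CPM (log2 -3.23 ± 0.47, adjusted p = 2.93e-04).

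Of 32 carriers with an Slco name or a letter other than a, 17 were tested. Of these, 3 were higher and 6 lower, beside 23.2% and 30.2% of all genes tested. Their median log2 fold change was -0.14. Without Kupffer day 0 a, 2 were higher and 3 lower, and without Kupffer day 0 b 2 were higher. Slco2a1, the prostaglandin transporter, had 175 and 178 CPM in Kupffer libraries and 19.1, 8.49, 3.19 and 2.98 CPM in CD40 libraries (log2 -4.57 ± 0.48, adjusted p = 3.59e-05). Slco2b1, an organic anion carrier, fell from 16.1 ± 3.14 to 0.604 ± 0.429 CPM (log2 -4.40 ± 0.51, adjusted p = 7.69e-05). Slc35c1, the GDP-fucose carrier of the Golgi, rose from 20.6 ± 2.36 to 54.6 ± 3.09 CPM (log2 1.43 ± 0.22, adjusted p = 4.34e-04). Its relative Slc35c2 rose from 37.5 ± 10 to 157 ± 24.6 CPM (log2 2.10 ± 0.25, adjusted p = 9.01e-05).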

How the data were processed

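Poly(A) RNA was sequenced from the 3′ end, with molecular identifiers in the primer per the labels' protocol. The authors deposited 1 table of raw counts per gene symbol, with 25919 rows and 12 columns. The aligner, counter and annotation, and if reads or identifiers were counted, are details not given in the sources used here. Per the submitters' processing notes, DESeq2 1.22.2 served on build GRCm38.p6. Columns are named by group, without a replicate number, and 0 columns belong to no sample. Only the 2 Kupffer day 0 and 4 CD40 day 2 columns were read by gene: the other 6 seem to be sorted apart from the gene names. Of the columns read, Kupffer day 0 a also runs in falling order down the rows, with 0 steps up beside 7828 in Kupffer day 0 b. The Kupffer markers summed to 4369 CPM in Kupffer day 0 a and 3998 CPM in b.

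Counts were tested with edgeR 4.0.16 (R 4.3.3, limma 3.58.1): TMM scaling, filterByExpr, quasi-likelihood test, two-sided, Benjamini-Hochberg adjustment over all genes tested, threshold 0.05. CPM is each gene's share of the TMM-adjusted total. Standard errors were taken from the F statistic, as the size of the log2 fold change divided by its square root. Alternatives were DESeq2 1.42.0, RLE and upper quartile scaling, other filters, and leaving out each library. The edgeR step was tested on simulated data. Genes were named as the up to 3 largest rises and falls in each class with an adjusted p under 0.05, no overlap and a mean of at least 20 CPM, plus a fixed list, and members mentioned outside this rule were chosen after their values were seen. For genes named by the class rule, the lack of overlap was thus a condition of naming and adds no support to their calls. The members, classes and lists were chosen with earlier results of these data known. Class and marker summaries carry no test. Intervals cover counting error only. A few members are counted but not reported here by name.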

Additional observations from a re-analysis of the deposited data

Results flagged for a closer look

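Values of the 4 CD40 day 2 libraries were looked at for 48 sets, those of the named members among them. A library was picked out when its gap to the nearest other library, divided by the range of the group, exceeded Dixon's 95% critical value. This was met by 4 of the 48 sets, and chance alone meets it in about 1 in 20. The sets share the same libraries. Slc1a5, a glutamine carrier, was highest in CD40 b at 39.6 CPM, beside 23.7, 24.6 and 25.6 CPM in the others. Slc43a3, a nucleobase carrier, was highest in CD40 a at 57.3 CPM, beside 14.1, 17.3 and 9.53 CPM. Slc31a1, the copper importer, was lowest in CD40 b at 108 CPM, beside 191, 186 and 186 CPM. Slc9a9, the endosomal sodium-proton exchanger, was highest in CD40 d at 10.1 CPM, beside 3.64, 4.24 and 4.55 CPM.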

How the results depend on the processing

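Leaving out each library in turn gave 13 to 25 members higher (24 with all libraries) and 20 to 37 lower (36 with all), with the lowest counts, 13 and 20, both without Kupffer day 0 a, the deeper of the 2 Kupffer libraries. Fewer of all genes tested also passed without Kupffer day 0 a than with all libraries. The cause was not tested. Of the 60 members called, 51 were also called by DESeq2, 59 with RLE scaling, 57 with upper quartile scaling, 58 with no filter on low counts and 41 with at least 10 counts in 4 libraries, a filter that leaves fewer genes tested. Those lost under DESeq2 included Slc7a6, Slc12a9, Slc25a4, Slc25a12, Slc25a22, Slc33a1, Slc37a3 and Slc44a2. Without Kupffer day 0 a and b, 33 and 47 of them were called, and without CD40 a to d 56, 57, 52 and 54. Slc48a1 had a log2 fold change of 0.02, which changed sign without passing any threshold: -0.11 with at least 10 counts in 4 libraries, -0.17 without Kupffer day 0 b (the lowest of the values without 1 library, the highest being 0.26), -0.08 without CD40 c and -0.11 without CD40 d. Over all alternatives of the named members, 367 values kept their direction and their side of the threshold, 21 kept the direction but lost the call, and 4 changed sign. With at least 10 counts in 4 libraries, 2 sugar carriers were lower, beside 5 with the filter used, and 5 mitochondrial carriers higher, beside 8. On the raw library total, the Kupffer sums of all 11 classes were higher. This follows from the scaling factors of the Kupffer libraries, 1.097 and 1.059, which apply to every gene alike, and says nothing of any class. The sums of 8 classes moved by more than the spread between libraries, such as 2041 CPM for amino acids, 1718 CPM for mitochondrial carriers and 1984 CPM for nucleosides. The median log2 fold change of all genes lay between -0.17 and -0.02 over the settings. No paired analysis was possible because the column names carry no replicate number. The depth limits carriers near 1.36 to 4.23 CPM, the level that a count of 0 allows.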

Other observations

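Genes that respond to amino acid shortage through the transcription factor ATF4 did not go one way. Of 12 listed, 9 were tested. Of these, 3 were higher and 2 lower in CD40 libraries, beside 23.2% and 30.2% of all genes tested. Their median log2 fold change was 0.25. Without Kupffer day 0 a, 1 was higher and 1 lower, and the same counts held without CD40 d. The number lower was also 1 without Kupffer day 0 b, CD40 a or CD40 c. Mthfd2, a mitochondrial enzyme of one-carbon metabolism, rose from 8.65 ± 2.38 CPM (SD, n = 2) to 174 ± 64.4 CPM (SD, n = 4) (log2 4.22 ± 0.44 SE, edgeR adjusted p = 3.87e-05). Psat1, of serine synthesis, rose from 1.27 ± 0.173 to 11.6 ± 4.82 CPM (log2 3.19, adjusted p = 0.00294, and 0.0696 without Kupffer day 0 a). Aldh18a1, of proline synthesis, was past the threshold (log2 1.27, adjusted p = 0.0469), but not without Kupffer day 0 a (0.168) or b (0.165) or CD40 d (0.104). Sesn2 was lower (log2 -1.11, adjusted p = 0.0392), a call lost without Kupffer day 0 a (0.0637) or b (0.242) or CD40 a, c or d (0.0729, 0.0643 and 0.0666). Atf4 itself fell from 295 ± 5.7 to 155 ± 23 CPM (log2 -0.92 ± 0.17, adjusted p = 0.00135).

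Metallothioneins, which bind zinc and copper and whose transcripts respond to free zinc, fell. Of 3 genes of the zinc response list, 2 were lower, beside 30.2% of all genes tested. Mt1 had 1719 and 1546 CPM in Kupffer libraries and 524, 311, 413 and 534 CPM in CD40 libraries (log2 -1.87 ± 0.21, adjusted p = 6.35e-05), and Mt2 fell from 382 ± 111 to 34 ± 24.4 CPM (log2 -3.50 ± 0.42, adjusted p = 9.22e-05). Both have no overlap between groups. Of 8 genes of the NRF2 oxidative stress response, 1 was higher and 2 were lower, beside 23.2% and 30.2% of all genes tested. The riser, glutathione reductase Gsr, went from 52.3 ± 0.883 to 86.8 ± 21.9 CPM (log2 0.76, adjusted p = 0.0295), a call lost without Kupffer day 0 a (0.177) or b (0.122) or CD40 c or d (0.0777 and 0.0527), which leaves 0 higher. Without CD40 d, 3 were lower. Nqo1, a quinone reductase, fell from 16.1 ± 3.14 to 1.13 ± 0.863 CPM (log2 -3.50 ± 0.51, adjusted p = 2.91e-04). Gclc, of glutathione synthesis, fell from 26.4 ± 0.0357 to 8.2 ± 3.33 CPM (adjusted p = 0.00401, and 0.0519 without Kupffer day 0 a).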
